A study of Saccharomyces cerevisiae with 8 samples.

Results

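Wild type Saccharomyces cerevisiae grown at 37 C was compared with wild type grown at 26 C. The comparison used 3 of the 8 Affymetrix expression arrays of the series, 1 from cells at 37 C and 2 from cells at 26 C, and covered all 9275 probe sets that are not controls. A probe set was taken to differ when the 37 C array lay on the same side of both 26 C arrays, after all arrays had been brought to a common scale by quantile normalisation. Values below are normalised signals, and log2 differences are of signal + 16, a scale that understates the differences of dim transcripts.

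All cells were collected during exponential growth, and the labels call the 26 C arrays biological replicates 1 and 2. The 37 C group had no replicate. Per the labels, the medium was yeast complete medium with or without leucine, and the series design names rich medium. The labels used here do not say which array had which medium, how long the cells had been at 37 C, or what the strain background was. The other 5 arrays came from strains labelled rnt1d (1 array at 37 C, 2 at 26 C) and rnt1ts (1 array at each temperature). All 5 served to compare the temperature effect, and the 2 rnt1d arrays at 26 C also served to estimate the spread. RNT1, which encodes the yeast RNase III, had a signal of 268.5 on the wild type 37 C array, against 181 and 149 on the wild type 26 C arrays. At 37 C the mutant arrays went against their labels for RNT1, with a signal of 71.4 for rnt1d and one of 1.26 for rnt1ts. The temperature effect in the mutants was therefore taken only as the mean over both. Where signals of single mutant arrays are given, they are named by these labels. The ts of rnt1ts commonly stands for temperature-sensitive. The difference between temperatures in that strain may therefore also hold a loss of Rnt1 function, which was not tested.

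Yeast cells meet heat with overlapping programmes. The heat shock factor Hsf1 drives chaperones that keep proteins folded, and Msn2 and Msn4 drive a general stress response of carbohydrate storage, oxidant defence and membrane protection. Cells shifted abruptly to heat show a brief burst of both, along with a brief fall of ribosome synthesis genes, while cells that have settled at a higher temperature have a milder profile. A separate set of genes, repressed by haem through Rox1, by Mot3 and by sterol supply, is known for its expression when oxygen is scarce.

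The largest differences were in 2 genes of the low-oxygen class. TIR1, a cell wall mannoprotein of the seripauperin family known for induction by cold and by lack of oxygen, had a signal of 5012 at 37 C, against 299 and 271 at 26 C. Its log2 difference was 4.06 (SE 0.32), and its adjusted p was 0.0932 in the limma fit across all probe sets. ANB1, the low-oxygen isoform of the translation factor eIF5A, had a signal of 1396 at 37 C, against 87.2 and 82.6 at 26 C. Its log2 difference was 3.81 (SE 0.27, limma adjusted p = 0.0932). For both genes the 37 C signal was far above the closely spaced 26 C signals. The 37 C group itself is 1 array, so its spread is taken from the replicate arrays at 26 C.

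No probe set passed an adjusted p of 0.05 in this fit, 0 higher and 0 lower. At an unadjusted p under 0.05 there were 894 probe sets in the limma fit, 443 higher and 451 lower at 37 C. The same fit without dim probe sets called 3 genes, DAN1, ANB1 and TIR1, and a pseudocount of 64 called 2, DAN1 and ANB1. Over all settings tried the calls ran from 0 to 14. Differences are therefore described here by their size and by whether they held against both 26 C arrays. At 37 C, 84 probe sets (0.906%) differed at least 2-fold from both 26 C arrays, 59 of them higher (0.636%) and 25 lower (0.270%). On the deposited scale the split was 115 higher and 10 lower, and with median scaling it was 53 higher and 50 lower. Against single arrays, 133 probe sets (1.43%) differed at least 2-fold from replicate 1 and 253 (2.73%) from replicate 2, while 83 (0.895%) differed that much between the 26 C replicates themselves.

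**Figure D1:**
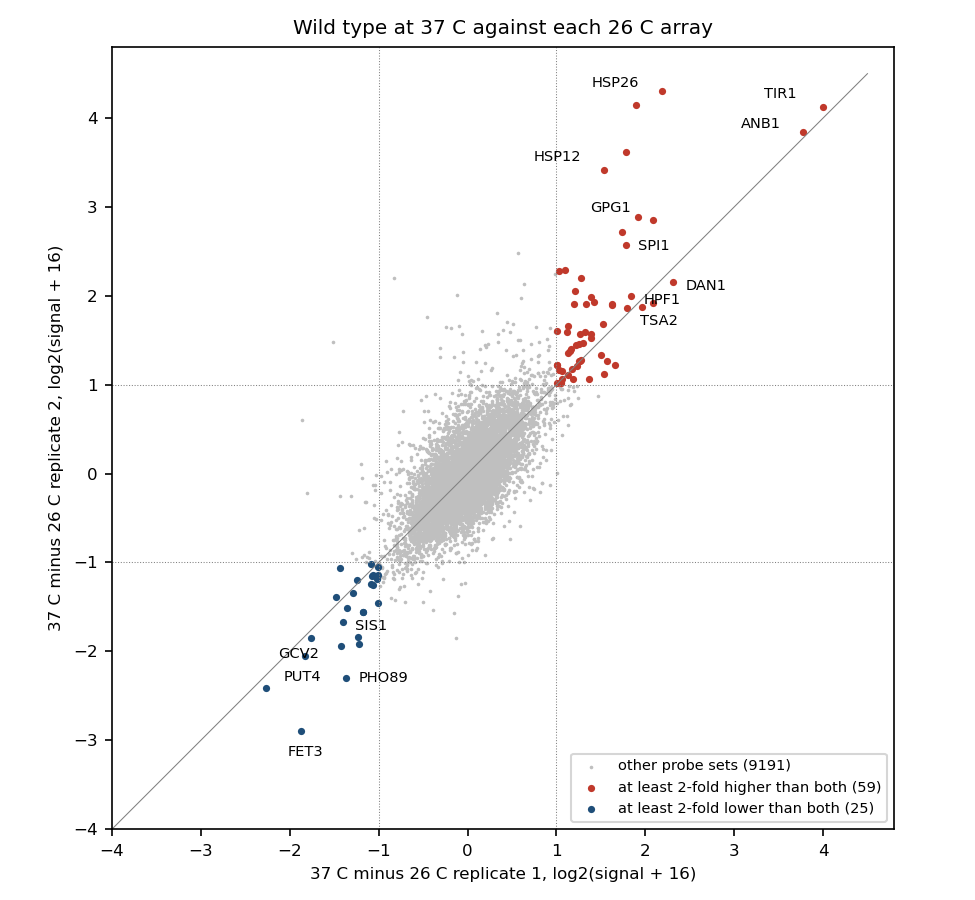
Log2 difference of the wild type 37 C array from 26 C replicate 1 (horizontal axis) and from 26 C replicate 2 (vertical axis), on the log2(signal + 16) scale, 1 point per probe set. Red points are the 59 probe sets at least 2-fold higher and blue points the 25 at least 2-fold lower than both 26 C arrays. The diagonal marks equal differences, dotted lines mark 2-fold, and TIR1 and ANB1 lie near the diagonal while HSP26 and HSP12 lie well above it.

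Of the 84 probe sets, 49 higher and 22 lower ones name 1 gene each, and they cover 47 genes on the higher side and 22 on the lower. For 45 of the 59 higher and 21 of the 25 lower probe sets the difference from replicate 1 was the smaller one. The replicate 2 array also carried a summed signal of 2476 from 9 probe sets for control transcripts added to the hybridisation mix, against 28.6 on the 37 C array and 77.6 on replicate 1. The part of this in the differences was not tested, and differences from replicate 1 are given below for several genes whose 26 C arrays stood apart. The ratio of the 3′ to the 5′ actin probe sets, a measure of RNA integrity, was 1.59 at 37 C, against 1.56 and 1.96 at 26 C. Just inside the 2-fold limit, the smaller log2 difference was 1.00 for the sulphite pump SSU1, 1.00 for the box C/D snoRNA SNR4 and 1.01 for HMG1. Just outside it were 0.98 for the glucose-responsive repressor RGT1, 0.95 for HIS3 and, on the lower side, -0.99 for the nucleotide exchange factor FES1 and -0.96 for the Hsp70 chaperone SSA2.

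The cells carried the transcripts of a mating type a strain at both temperatures. The a-factor gene MFA2 was at 1102 at 37 C, against 1879 and 1501 at 26 C. The alpha-specific receptor STE3 was at 19.5 at 37 C, against 13.0 and 15.3 at 26 C, and the alpha-factor gene MF(ALPHA)1 was at 33.0, against 33.5 and 29.8. Of 8 genes of the mitochondrial genome, 5 were above background on all 3 arrays. OLI1, a subunit of the mitochondrial ATP synthase, was at 2254 at 37 C, against 2353 and 2542 at 26 C, and COX1 was at 1654, against 1212 and 1288. Dimmer COX1 probe sets were at 53.1 against 60.0 and 76.0, and at 26.4 against 33.7 and 39.5, so its probe sets disagree. VAR1, the dimmest of the 8 genes at 37 C, was at 1.57, against 0.243 and 13.7 at 26 C. Meiotic genes were dim throughout, with NDT80 at 18.7 at 37 C and at 15.7 and 18.0 at 26 C.

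**Figure D2:**
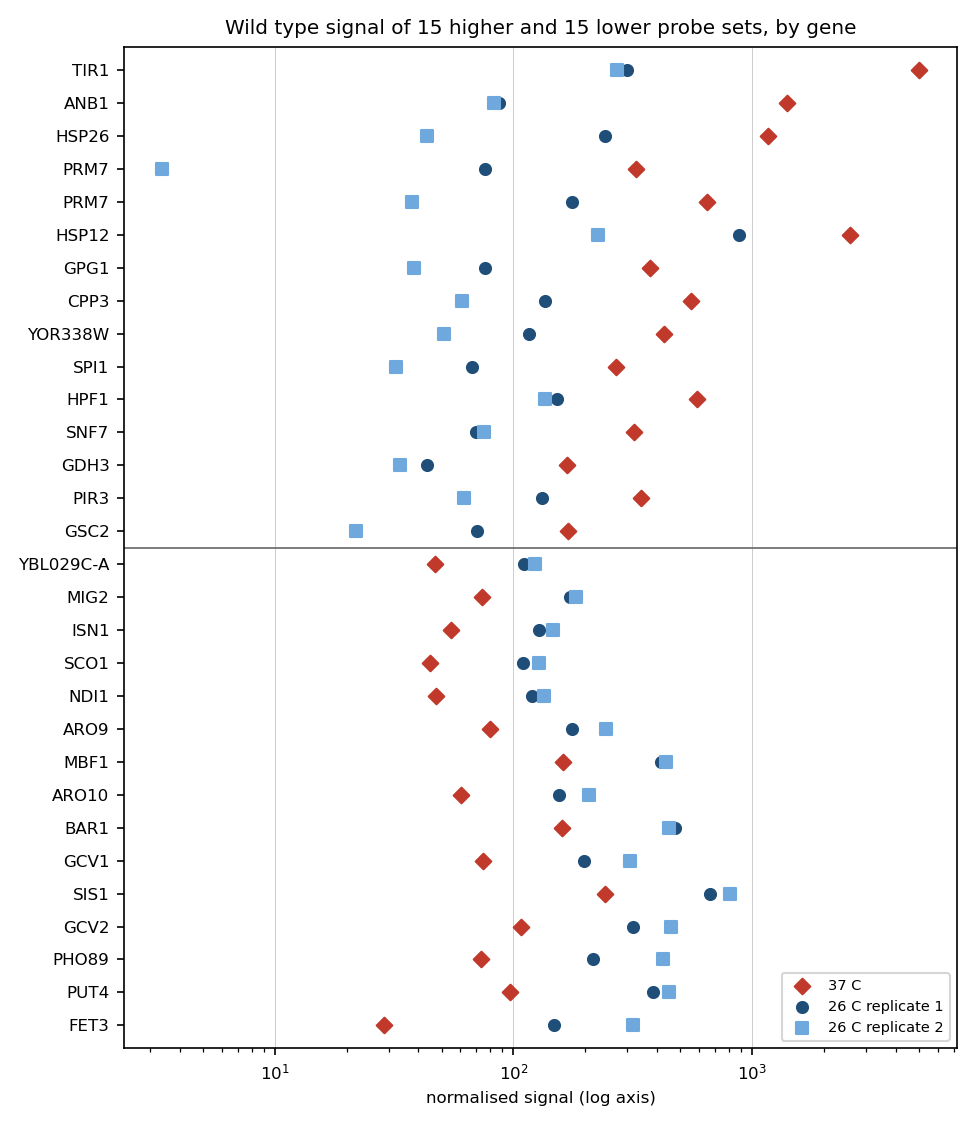
Normalised signal (log axis) of 15 higher and 15 lower probe sets in wild type, labelled by gene, with the 37 C array as red diamonds, 26 C replicate 1 as dark circles and 26 C replicate 2 as light squares. They are the probe sets with the largest log2 differences among those at least 2-fold from both 26 C arrays and above the median signal, PRM7 having 2. Every diamond lies outside the pair of 26 C points, and the 26 C points of TIR1, ANB1 and HPF1 lie close together while those of PRM7, HSP26 and HSP12 are far apart.

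Beyond TIR1 and ANB1, further genes known for low-oxygen expression were higher at 37 C. DAN1, a cell wall mannoprotein of anaerobic cells, had a signal of 144 at 37 C, against 16.2 and 19.9 at 26 C. Its log2 difference was 2.24 (SE 0.21, limma adjusted p = 0.160). TIR4, of the same mannoprotein family, was at 261 at 37 C, against 103 and 86.1 at 26 C. CYC7, the cytochrome c isoform favoured at low oxygen, was at 133, against 35.5 and 52.5, and its log2 difference was 1.33. All 3 genes lay above both 26 C arrays, as did COX5B, the low-oxygen subunit of cytochrome oxidase, at 194 against 101 and 106. AAC3, the low-oxygen ADP/ATP carrier, was at 74.1 against 45.3 and 33.1.

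Of the 15 measured seripauperins and anaerobic mannoproteins, 12 were higher than both 26 C arrays and 1 lower, with 3 at least 2-fold higher and a median log2 difference of 0.52. Over all 5656 genes, 37.7% were higher and 41.0% lower than both 26 C arrays, with a median of -0.02. At least 2-fold from both, 0.831% were higher and 0.371% lower. These shares are the background for the counts of every list below. The seripauperin family has near-identical members, and its probe sets can share transcripts. The member that was lower was TIR2, at 176 at 37 C against 239 and 223 at 26 C. Of 24 genes of the haem and Rox1 group, 13 were higher than both 26 C arrays and 3 lower, with a median of 0.26. The repressor gene ROX1 itself was at 55.1 at 37 C, between the 26 C signals of 71.7 and 44.5. HEM13, a haem synthesis enzyme known for induction without oxygen, was at 72.7, also between the 26 C signals of 75.7 and 48.1. The aerobic partners of these isoforms differed less. HYP2, the aerobic eIF5A, had a signal of 4104 at 37 C against 3790 and 3857 at 26 C, a log2 difference of 0.10 that was -0.37 with median scaling. CYC1, the main cytochrome c, was at 735.5 at 37 C against 1109 and 1104 at 26 C.

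In the mutant strains the 3 leading genes of this class did not show the wild type difference. The mean temperature effect of the mutants, as a log2 difference of 37 C from 26 C, was -0.05 for TIR1, -0.28 for ANB1 and -0.18 for DAN1. TIR1 was at 156 and 295 on the mutant arrays at 37 C, and at 204, 351 and 185 on the mutant arrays at 26 C. The wild type effect exceeded the mutant mean by 4.11 log2 units for TIR1 (SE 0.40, limma adjusted p = 0.313), by 4.09 for ANB1 (SE 0.34, limma adjusted p = 0.235) and by 2.41 for DAN1 (SE 0.26, limma adjusted p = 0.339). None of these passed the threshold in the limma fit. Across all probe sets that test called 0, with 407 at an unadjusted p under 0.05, and without dim probe sets it called ANB1 and TIR1.

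**Figure D3:**
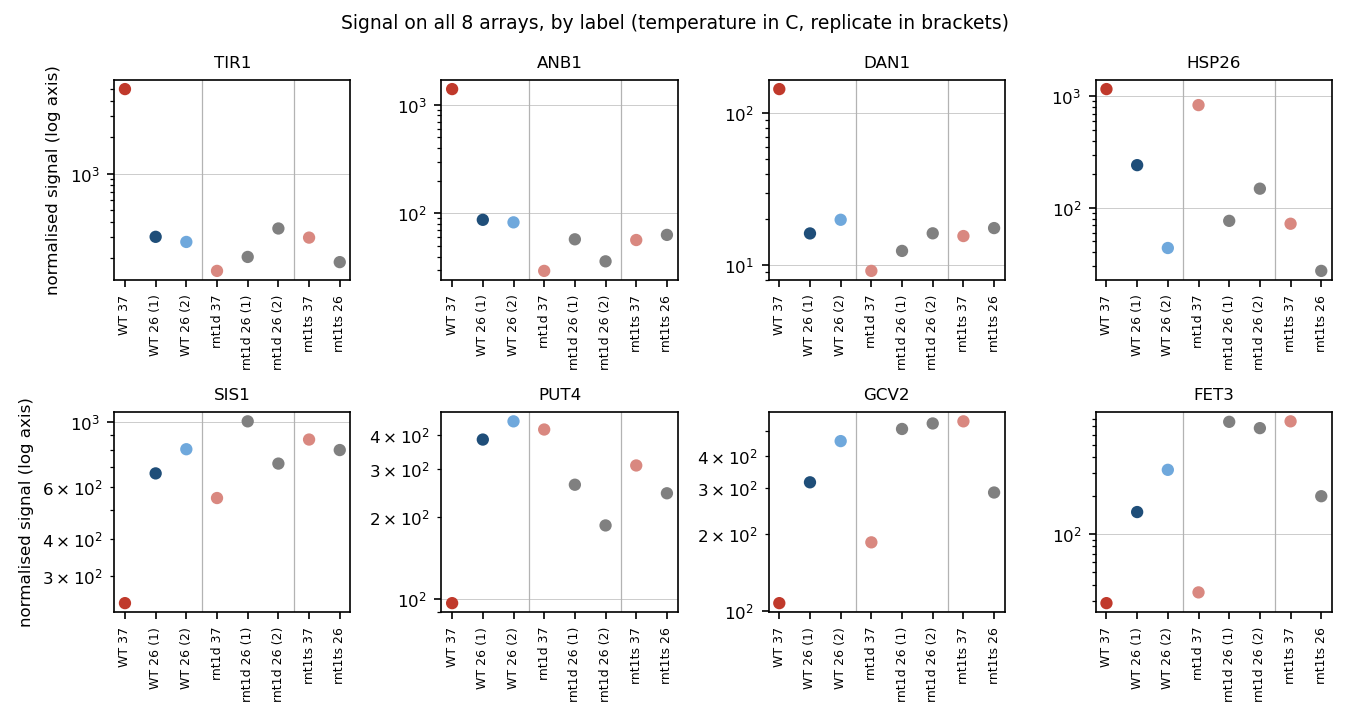
Normalised signal (log axis) of 8 genes on all 8 arrays, named by strain label, growth temperature in C and replicate. Red points are wild type at 37 C, dark and light blue points wild type at 26 C, pink points the mutants at 37 C and grey points the mutants at 26 C. TIR1, ANB1 and DAN1 are high on the wild type 37 C array alone, and HSP26 is also high on the array labelled rnt1d 37 C, while SIS1, PUT4, GCV2 and FET3 are lowest on the wild type 37 C array.

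Small heat shock and membrane stress genes were also higher at 37 C, but their 26 C arrays stood apart. HSP26, a small chaperone that holds unfolded proteins, had a signal of 1163 at 37 C, against 242 and 43.7 at 26 C. Its log2 difference was 2.19 from replicate 1 and 4.30 from replicate 2 (fitted 3.25, SE 0.84, limma adjusted p = 0.422). HSP12, a membrane-associated stress protein, was at 2582 at 37 C, against 880 and 227 at 26 C, a log2 difference of 1.54 from replicate 1 and 3.42 from replicate 2. Both genes were above both 26 C arrays, but the 26 C arrays themselves differed by 2.11 log2 units for HSP26 and by 1.88 for HSP12. SPI1, a cell wall protein of the stationary phase, was at 269 at 37 C against 66.9 and 32.1 at 26 C, a log2 difference of 1.78 from replicate 1 (fitted 2.18, SE 0.43). TFS1, an inhibitor of carboxypeptidase Y, was at 508 against 180 and 122, and YRO2, a plasma membrane protein related to Hsp30, was at 397 against 164 and 93.6.

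Of 39 general stress genes, 27 were higher than both 26 C arrays and 9 lower, 9 were at least 2-fold higher and 0 at least 2-fold lower, and the median log2 difference was 0.32. Against replicate 1 alone, 30 were higher and 10 at least 2-fold higher, with a median of 0.51. Other members at least 2-fold higher were GPH1, the glycogen phosphorylase, at 254 against 105 and 86.0, and GND2, a stress isoform of the pentose phosphate pathway, at 90.4 against 24.7 and 19.7. MOH1, known from the stationary phase, and PAI3, the inhibitor of proteinase A, were also among the 9. The list was not uniform. HXK1, a hexokinase, was at 164 at 37 C against 303 and 378 at 26 C, and TPS2, a trehalose synthesis enzyme, was at 100.4 against 173 and 189. CTT1, the cytosolic catalase and a common marker of this response, was dim, at 9.16 at 37 C against 13.6 and 13.7 at 26 C. The mean effect in the mutants was above 0 for 31 of the 39 genes, with a median of 0.33. Over all probe sets it was above 0 for 4576 of 9275. That mean does not show whether both mutant arrays at 37 C rose.

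Most chaperones did not follow HSP26. Of 28 cytosolic and nuclear chaperone genes, 12 were higher than both 26 C arrays and 14 lower, 2 were at least 2-fold higher (HSP26 and HSP12, which the general stress list also holds) and 1 at least 2-fold lower. The median log2 difference was -0.05, against -0.02 over all genes. It was 0.06 on the deposited scale, where the median of all probe sets was 0.24, and -0.41 with median scaling, where that of all probe sets was -0.05. SIS1, an essential Hsp40 co-chaperone and a target of Hsf1, had a signal of 242 at 37 C, against 667 and 806 at 26 C. Its log2 difference was -1.54 (SE 0.26, limma adjusted p = 0.356), and its 37 C signal was the lowest of the 8 arrays. SSA2, a constitutive Hsp70, was at 1817 against 4366 and 3548, although it shares sequence with SSA1, which was at 5171 against 5634 and 5069. FES1, a nucleotide exchange factor of Hsp70, was at 204 against 422 and 487.

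Other Hsp70 and Hsp90 system members were lower too, YDJ1 (Hsp40) at 1140.4 against 1840.4 and 1559.8, STI1 (an Hsp70 and Hsp90 adaptor) at 582 against 875 and 1054, and HSC82 (the constitutive Hsp90) at 1370.4 against 2039 and 1939.6. Other members of these systems were higher. SSA4, an Hsp70 that is nearly silent in unstressed cells, was at 124 at 37 C, against 57.0 and 54.9 at 26 C. HSP104, the disaggregase, was at 267 against 168 and 181, and HSP82, the inducible Hsp90, was at 723 against 386 and 651. Each of these was above both 26 C arrays and under 2-fold on the signal + 16 scale.

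Proteasome genes were lower at 37 C, with log2 differences from -1.03 to -0.04. Of 38 proteasome and ubiquitin genes, 37 were lower than both 26 C arrays and 0 higher, with a median log2 difference of -0.51. Over all genes 41.0% were lower and 37.7% higher. SCL1, a core particle alpha subunit, was at 131 at 37 C against 280 and 290 at 26 C, and was the 1 member at least 2-fold lower on the signal + 16 scale. PUP1, the beta subunit with trypsin-like activity, was at 264 against 531 and 569, and PUP2, an alpha subunit, was at 119 against 248 and 240. RPN9 of the regulatory particle was at 130 against 225 and 304. Each 37 C signal lay below both 26 C signals. RPN4, the transcription factor of proteasome genes, was at 111 against 126 and 172. The same direction held under both other scalings, with 29 of 38 lower and 2 higher on the deposited scale and 37 lower with median scaling, and the mean effect in the mutants had a median of -0.07.

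Nuclear genes of aerobic respiration were lower as well. Of 37, 32 were lower than both 26 C arrays and 1 higher, with a median log2 difference of -0.40, and 1 was at least 2-fold lower. NDI1, the internal NADH dehydrogenase, was at 47.5 at 37 C against 119 and 134 at 26 C. CYT1, cytochrome c1, was at 67.2 against 126 and 148, and COX4, a subunit of cytochrome oxidase, was at 342 against 588 and 664. The member that was higher was CYB2, a lactate dehydrogenase of the mitochondrial intermembrane space, at 122 against 46.9 and 78.4. Outside this list, SCO1, which delivers copper to cytochrome oxidase, was at 44.6 at 37 C against 110 and 129 at 26 C. In the citric acid and glyoxylate cycles 15 of 25 genes were lower and 7 higher, with a median of -0.28. On the deposited scale the list median was 0.02, where that of all probe sets was 0.24. KGD2, a subunit of 2-oxoglutarate dehydrogenase, was at 115 at 37 C against 234 and 272 at 26 C.

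**Figure D4:**
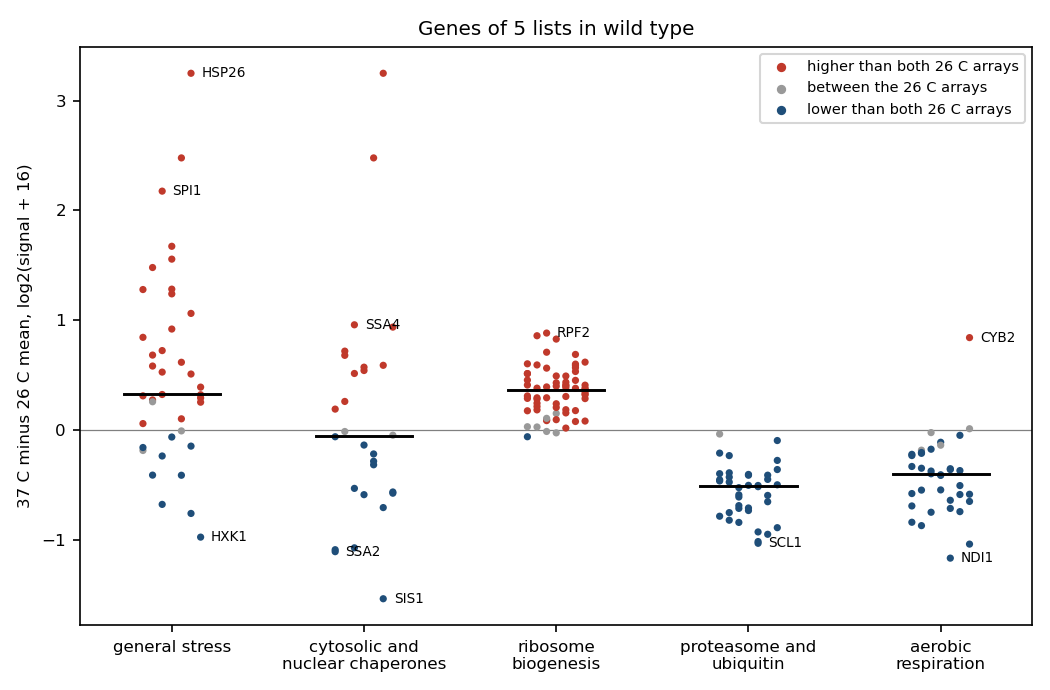
Log2 difference of wild type at 37 C from the mean at 26 C, on the log2(signal + 16) scale, for the genes of 5 lists, 1 point per gene, with black bars at the medians. Red points are higher and blue points lower than both 26 C arrays, and grey points lie between them. The proteasome and respiration points lie almost all below 0 and the ribosome biogenesis points almost all above, while the chaperones spread to both sides of 0.

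Ribosome biogenesis genes were higher at 37 C by a small amount. Of 64, 57 were higher than both 26 C arrays and 1 lower, with 0 past 2-fold, a median log2 difference of 0.36 and a range from -0.06 to 0.88. RPF2, an assembly factor of the large subunit, was at 734 at 37 C against 466 and 327 at 26 C. RLP7, another large subunit factor, was at 350 against 158 and 218, and UTP10, of the small subunit processome, was at 506 against 327 and 236. RPA135, a subunit of RNA polymerase I, was at 852 against 633 and 516. The 26 C arrays differed in the same sense for this list, with replicate 1 above replicate 2 by a median of 0.14, and the median difference was 0.28 from replicate 1 and 0.41 from replicate 2. With median scaling 44 were higher and 10 lower and the median was 0.17, and with the hybridisation control transcripts as a term in the fit it was also 0.17. Cytosolic ribosomal protein genes were not higher with them: 36 of 65 were lower than both 26 C arrays and 4 higher, with a median of -0.08. On the deposited scale 4 were lower and 4 higher, with a median of 0.00, where that of all probe sets was 0.24. With median scaling 61 were lower and 2 higher, with a median of -0.50, where that of all probe sets was -0.05.

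**Figure D5:**
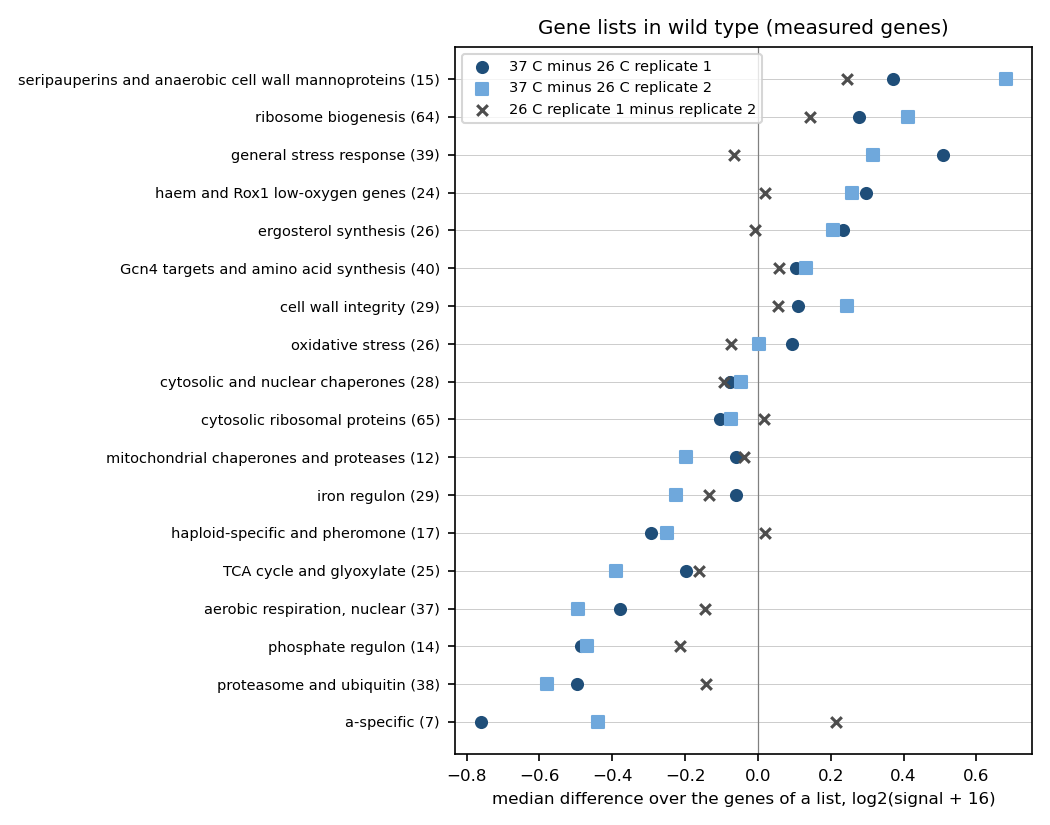
Median log2 difference over the genes of 18 lists in wild type, on the log2(signal + 16) scale, with the number of measured genes in brackets. Circles are 37 C minus 26 C replicate 1, squares 37 C minus 26 C replicate 2, and crosses 26 C replicate 1 minus replicate 2. The proteasome, respiration and phosphate lists lie left of 0 and the low-oxygen, ribosome biogenesis and general stress lists right of 0 against both replicates, farther out than the crosses.

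In membrane and cell wall metabolism, HMG1, which encodes the main HMG-CoA reductase of sterol synthesis, was at 1691 at 37 C against 832 and 714 at 26 C, a log2 difference of 1.12. Of 26 ergosterol genes 21 were higher than both 26 C arrays and 3 lower, with a median of 0.23, but with median scaling 8 were higher and 15 lower, with a median of -0.10. PIR3, an O-glycosylated wall protein of the Slt2 cell integrity pathway, was at 343.5 at 37 C against 132 and 62.1 at 26 C, a log2 difference of 1.28 from replicate 1. GSC2, the stress-induced subunit of glucan synthase, was at 371 against 147 and 125, and its 7 probe sets ran from -0.02 to 1.69, so they disagree. KTR2, a mannosyltransferase, was at 132 against 68.2 and 53.1, and RLM1, a transcription factor of the pathway, was at 289 against 173 and 140. Of 29 cell integrity genes, 16 were higher than both 26 C arrays and 7 lower, with a median of 0.13, but with median scaling 12 were higher and 14 lower, with a median of -0.07. HPF1, a wall mannoprotein, was at 590 at 37 C against 153 and 136 at 26 C.

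Several higher genes belonged to other responses. TSA2, a minor peroxiredoxin, was at 149.5 at 37 C against 31.7 and 29.7 at 26 C, and SRX1, sulfiredoxin, was at 95.8 against 32.5 and 10.9, a log2 difference of 1.20 from replicate 1. The oxidative stress list as a whole was divided, with 13 of 26 higher and 11 lower, and 8 higher and 17 lower with median scaling. HUG1, a ribonucleotide reductase inhibitor induced by DNA damage, was at 135 against 36.7 and 30.9. CRS5, a metallothionein, was at 193 against 63.9 and 56.8. INO1, inositol phosphate synthase, was at 70.2 against 18.6 and 12.5. GPG1, known as a partner of the G protein alpha subunit Gpa2, was at 375 against 76.2 and 38.2, and GDH3, a glutamate dehydrogenase isoform, was at 168 against 43.6 and 33.5. For these genes the 37 C array lay above both 26 C arrays. PRM7, a gene of the pheromone response, was at 645 at 37 C, with unequal 26 C signals of 176 and 37.7 and a log2 difference of 1.78 from replicate 1. SNF7, an ESCRT-III subunit, was at 319 against 69.98 and 75.5, but a second probe set of SNF7 had a log2 difference of 0.07, so its probe sets disagree. RPR1, the RNA of RNase P, was at 280 against 107 and 84.1. Its mean effect in the mutants was 1.23, but the mutant arrays at 37 C were unlike. RPR1 was at 995 (labelled rnt1d) and 145 (labelled rnt1ts) at 37 C, against 126, 198 and 154 on the mutant arrays at 26 C.

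Transporters and enzymes of amino acid metabolism were among the lower genes. FET3, the multicopper oxidase of high-affinity iron uptake, had a signal of 28.7 at 37 C, against 149 and 318 at 26 C. Its log2 difference was -1.88 from replicate 1 and -2.90 from replicate 2 (fitted -2.39, SE 0.41, limma adjusted p = 0.356). It was the single member at least 2-fold lower among 29 iron regulon genes, of which 7 were higher than both 26 C arrays and 14 lower, with a median of -0.14. On the deposited scale 14 of them were higher and 5 lower, with a median of 0.17, where that of all probe sets was 0.24. PUT4, the proline permease, was at 96.8 at 37 C against 386 and 450 at 26 C, a log2 difference of -1.94 (SE 0.25), and its mean effect in the mutants was 0.60. GCV2 and GCV1, subunits of glycine decarboxylase, were both lower, GCV2 at 107.5 against 316 and 457 and GCV1 at 74.7 against 197 and 309. ARO10 and ARO9, of aromatic amino acid breakdown, were at 60.2 against 156 and 208 and at 79.5 against 176 and 245. Their mean effects in the mutants were -0.88 and -0.72. MBF1, a transcriptional coactivator of Gcn4, was at 161 against 414 and 434.

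Genes of amino acid synthesis lay on both sides. LEU1, of leucine synthesis, was at 373 at 37 C against 809 and 775 at 26 C, and LYS9, of lysine synthesis, was at 75.4 against 162 and 174. CPA1, of arginine synthesis, was at 1100.05 against 577 and 452, and HIS3 was at 138 against 58.5 and 63.7. A dimmer HIS3 probe set differed less, at 48.6 against 36.2 and 31.1, a log2 difference of 0.38. Of 40 Gcn4 targets and amino acid genes, 22 were higher than both 26 C arrays and 15 lower, with a median of 0.15, beside 37.7% higher and 41.0% lower over all genes. With median scaling 13 were higher and 24 lower, with a median of -0.19, and on the deposited scale 22 were higher and 5 lower. The labels do not tell which arrays came from medium without leucine.

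The phosphate regulon was lower, with 12 of 14 genes below both 26 C arrays and 2 above, and a median log2 difference of -0.50. PHO89, a sodium-phosphate cotransporter, was at 73.2 at 37 C against 215 and 423 at 26 C, a log2 difference of -1.37 from replicate 1. A probe set shared by the acid phosphatase genes PHO11 and PHO12 was at 299.5 against 1501 and 1659, while PHO5, the main acid phosphatase, was at 1061 against 1506 and 1484. PHO84, the high-affinity transporter, was at 3314 against 2941 and 2959, a log2 difference of 0.17 that was -0.29 with median scaling and 0.87 with the hybridisation control transcripts as a term in the fit. Among glucose-regulated genes, MIG2, a repressor induced by glucose, was at 74.1 against 172 and 183, and RGT1, a repressor of hexose transporters, was at 287 against 132 and 138. The near-identical transporter genes HXT6 and HXT7 were at 2055 against 1072 and 896 and at 1354 against 843 and 702.

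The a-specific genes were lower at 37 C. Of 7, 6 were below both 26 C arrays and 1 above, with a median log2 difference of -0.60. BAR1, the protease that degrades alpha-factor, was at 161 at 37 C against 476 and 447 at 26 C, a log2 difference of -1.44 (SE 0.21). STE2, the alpha-factor receptor, was at 149 against 293 and 306. MFA1 was at 584 against 1159 and 684, and a second MFA1 probe set was at 19.2 against 104 and 111. HO, the mating-type switching endonuclease gene, was at 137 against 256 and 333. Of 17 haploid-specific and pheromone genes 14 were lower than both 26 C arrays and 2 higher, with a median of -0.24. On the deposited scale the list median was 0.07, where that of all probe sets was 0.24.

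The 84 probe sets were also set against the temperature effect in the mutants, which shares no array with the wild type effect. Of the 59 higher probe sets, 52 had a mean mutant effect above 0, and 13 had one of at least 2-fold. The share of all probe sets with a mutant effect of that size was not counted. The median of the 59 was 0.53 in the mutants and 1.44 in wild type. The mean does not show whether both mutant arrays at 37 C rose. TFS1 was at 1031 (labelled rnt1d) and 202 (labelled rnt1ts) at 37 C, against 203, 250 and 228 at 26 C. SPI1 was at 501 and 531, against 485, 834 and 69.2. The array labelled rnt1ts 37 C had a correlation of 0.992 with rnt1d 26 C replicate 1. Of the 25 lower probe sets, 19 had a mean mutant effect below 0 and 0 had one at least 2-fold lower, with medians of -0.29 in the mutants and -1.36 in wild type. Over all probe sets, 4576 of 9275 had a mutant effect above 0 and the median was -0.00. The wild type effects were chosen for their size, so the medians of both are not comparable as sizes. YOR338W, for example, had a log2 difference of 2.23 in wild type (1.74 from replicate 1) and a mean of 2.13 in the mutants, while that of PUT4 was -1.94 in wild type and 0.60 in the mutants.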

How the data were processed

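Biotin-labelled total RNA was measured on Affymetrix yeast arrays, 1 per sample. Each deposited value is a probe set's intensity on a linear scale, and the submitters' processing notes name MAS5 as the authors' tool. The labels give neither its version nor a scaling target nor a genome build, and no coordinates are printed. The median deposited intensity ran from 31.0 to 69.5 over the 8 arrays, so arrays were quantile normalised together, the 60 control probe sets included. Of the 9275 other probe sets, 6504 name 1 gene, 328 name several and 2443 have no name in GEO's platform annotation, and 5656 genes are covered. Where a gene had several probe sets, the brightest on average represented it. A signal at or under the highest of 19 non-yeast control probe sets on an array was taken as not above background, a bound of 8.63 on the 37 C array and of 9.32 and 8.75 on the wild type 26 C arrays.

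Values were tested as log2(signal + 16) with limma 3.58.1 in R 4.3.3, as 6 group means over the 8 arrays with trended moderated variances, two-sided, with Benjamini-Hochberg adjustment at 0.05. Residual degrees of freedom were 2, all from the wild type and rnt1d replicates at 26 C, and the lone 37 C array was assumed to vary like them. The contrast of wild type with the mean of both mutants came from the same fit. Nothing in the labels beyond the word biological says that the 26 C samples came from separate cultures. Precision is limited by the number of arrays. The fit was tested on simulated data.

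Named genes were RNT1, the 15 largest probe sets in each direction among those at least 2-fold from both 26 C arrays and above the median mean signal (used in place of called probe sets, since fewer than 5 were called), the 3 members with the smallest p of each list without a called member, and all members of lists of at most 12. Other genes named were chosen after their values were seen. The 38 gene lists and the comparison itself were chosen with earlier results of these data known. No sequences were at hand, so a planned count of promoter motifs was not run. Alternatives were the scaling, the pseudocount, a filter on dim probe sets, the fold, left-out replicates, a replicate block, the variance trend, a fit to the wild type arrays alone and, chosen after seeing the data, the presence of hybridisation control transcripts as a term.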

Additional observations from a re-analysis of the deposited data

Results flagged for a closer look

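Signal was present in control probe sets that the comparison does not use. These 9 probe sets read bacterial and phage transcripts that are added to the hybridisation mix. Their summed signal was 2476 on wild type 26 C replicate 2 and 2854 on rnt1d 26 C replicate 2, with all 9 above the background bound on both arrays. On the wild type 37 C array it was 28.6, with 1 above the bound, and on wild type 26 C replicate 1 it was 77.6, with 3 above the bound. The labels do not mention this difference between replicates. With the presence of these transcripts as a term in the fit, limma called 4 probe sets higher at 37 C, those of DAN1, ANB1 and TIR1 and one shared by CSS1 and HPF1.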

How the results depend on the processing

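The test across all probe sets called 0, and 14 on the deposited scale (all higher), where the median log2 difference of all probe sets was 0.24, 2 with a pseudocount of 64, 3 without the dimmest 25% of probe sets, 2 with the wild type arrays alone and 4 with the hybridisation control term. With the replicate number of the 26 C arrays as a block it called 11, 7 higher (DAN1, ANB1, 1 probe set of GSC2, TIR1, PRM7, YOR338W and the CSS1 and HPF1 probe set) and 4 lower (PUT4, GCV1, GCV2 and the PHO11 and PHO12 probe set). The 37 C array has no replicate number, and same-numbered 26 C arrays of wild type and rnt1d deviated together with a correlation of 0.311 over only 2 pairs. The replicate 2 arrays also share the hybridisation control transcripts. The labels do not say that a number marks a shared batch or day, so whether the numbers pair the samples is not known. Among genes of the lists the calls were 0, against 4 on the deposited scale, 2 with a pseudocount of 64, 3 without dim probe sets, 4 with the block, 2 with the wild type arrays alone and 3 with the hybridisation control term. The difference from the mutants called 0, against 3 on the deposited scale, 2 without dim probe sets, 2 with the block and 2 with the hybridisation control term. TIR1 and ANB1 were the 2 genes in the last 3 of these. Leaving out each replicate gave 0 calls in all 3 tests. The 84 probe sets at least 2-fold from both arrays became 477 with a pseudocount of 1, 35 with a pseudocount of 64, 483 at 1.5-fold, 20 at 3-fold, and 132 to 257 with 1 of the 26 C arrays left out, 132 without replicate 2 and 257 without replicate 1. The other scalings gave 125 (deposited, sharing 68 with the 84), 103 (median, sharing 75) and 83 (over the wild type arrays, sharing 75). Of 106 genes followed over 15 settings, the direction turned for PHO84 (-0.29) and HYP2 (-0.37) with median scaling, for RPN4 (0.0058) and SSA1 (0.0074) on the deposited scale and for SSA1 with 1 replicate left out (-0.12 to 0.033, above 0 without wild type 26 C replicate 1). Signal over background limits dim genes, since 4 higher probe sets were not above background on either 26 C array and 2 lower ones not at 37 C. The cause of these changes was not tested.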

Other observations

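Some multidrug transport genes were higher at 37 C, though no member of the list reached 2-fold from both 26 C arrays on the signal + 16 scale. Of 15 such genes, 8 were higher than both 26 C arrays and 4 lower, with a median log2 difference of 0.18. Over all genes 37.7% were higher and 41.0% lower, with a median of -0.02. The list median was 0.06 with median scaling (6 higher and 5 lower) and 0.43 without wild type 26 C replicate 1. On the deposited scale it was 0.50 (12 higher and 2 lower), where the median of all probe sets was 0.24. YOR1, an ABC transporter of organic anions, had a signal of 420 at 37 C, against 264 and 173 at 26 C. Its probe sets ran from -0.41, for a dim one, to 1.05 in log2 difference, so they disagree. RSB1, a sphingoid base transporter, was at 45.3 against 16.5 and 11.1. FLR1, a drug transporter under Yap1, was on the other side, at 64.9 against 84.8 and 135.

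Genes of arginine breakdown were higher while the proline permease gene PUT4 was lower. CAR1, arginase, was at 620 at 37 C against 333 and 319 at 26 C, and CAR2, ornithine aminotransferase, was at 478 against 263 and 245. Of 21 nitrogen catabolite genes, 11 were higher than both 26 C arrays and 6 lower, with a median of 0.07 that was -0.01 with median scaling. Box C/D snoRNAs had a median of 0.09 over 40 genes, with 20 higher than both 26 C arrays and 9 lower. Beside both counts, 37.7% of all genes were higher and 41.0% lower, with a median of -0.02.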
